A study of Mus musculus with 6 samples.

Results

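Activator protein 1 (AP-1) is a transcription factor made of a pair of basic leucine zipper (bZIP) proteins, usually a Jun protein joined to a Fos protein or to a relative of the ATF or Maf type. Many of its genes are immediate early genes, which are transcribed within minutes of a growth or stress signal, largely through mitogen-activated protein (MAP) kinases, and whose mRNAs are short-lived. The make-up of the dimer sets how strongly it activates its targets, and in mammary carcinoma the Fos relative FRA-1, the product of *Fosl1*, is known as a factor of the mesenchymal, invasive state. The genes described here are 10 of this kind, found by symbol among the 43548 genes of the deposited table: *Fos*, *Fosb*, *Fosl1* and *Fosl2* (the Fos family), *Jun*, *Junb* and *Jund* (the Jun family), *Atf3* and *Maff* (bZIP partners), and *Egr1*, a zinc finger factor induced by the same signals. Each symbol stood in 1 row once repeats of an identifier were dropped.

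mRNA was sequenced from Met-1 TripZ-200c cells, a mouse mammary carcinoma line from a late MMTV-PyMT tumor of the FVB/nJ strain, that carries an integrated lentiviral pTripZ vector encoding the precursor of miR-200c under a doxycycline (Dox) switch. All 6 libraries came from this single clone, which was sorted for low leakiness and for intermediate induction, so no other clone was measured. In 3 libraries the cells had received vehicle (water) and in 3 they had received 1 µg/mL Dox, both for 48 h, and the wells were plated in triplicate. Cells with an empty vector and Dox were not analysed here, so an effect of Dox itself and an effect of miR-200c cannot be told apart, and p-values measure the spread between wells of 1 clone.

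Values are FPKM, fragments per kilobase of transcript scaled to the mapped reads of the library, and so can be set side by side between genes. FPKM sums were 800267 to 815139 per library, the reads behind each FPKM are not known, and relative depth, read from the lowest FPKM values, was 0.92 to 1.49 times that of the first library without Dox. *Zeb2*, a known miR-200c target, fell from 29.4, 30.7 and 27.9 to 9.04, 7.82 and 8 FPKM, and *Mir200c* itself was listed at 0 in all 6 libraries. That row is not a measure of the mature microRNA, which the paper reported as strongly raised by Dox in these cells by qRT-PCR. The summed FPKM of 5 epithelial markers (*Krt8*, *Krt18*, *Krt19*, *Epcam*, *Cdh1*) was 91.6 to 97 without Dox and 369 to 406 with Dox, nearly all of it *Krt18*, while *Krt8* and *Cdh1* had means below 1 FPKM in both groups and *Krt19* was listed at 0 throughout. These markers moved with Dox, and their part in the results was not tested. Of 7 leukocyte and endothelial markers, 6 were in the table and their sum was 11.1 to 15.6 FPKM without Dox and 11 to 11.7 FPKM with Dox, mostly *Cd68* and *Cdh5*, with *Cd3e* at 0. In bulk RNA, fewer cells that express a gene and less RNA per cell cannot be told apart.

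The mature strand encoded by the vector and the places where it could pair with these mRNAs are shown because a microRNA acts through such matches. In the mature sequence from RefSeq (GRCm38.p6, chr6:124718324-124718346, minus strand) the capitals mark the seed, bases 2 to 8, and the complement of the seed is CAGTATT, 7 bases long.

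mmu-miR-200c-3p: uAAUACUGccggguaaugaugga

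The longest annotated 3′ UTR (GENCODE, GRCm38) held this 7-base match in 3 of the 10 genes, with 1 match each. The matches are printed 5′ to 3′ on the mRNA strand with the match in capitals. The *Jun* match lies at chr4:95049929-95049955 (minus strand), the *Fosb* match at chr7:19304042-19304068 (minus strand) and the *Atf3* match at chr1:191170335-191170361 (minus strand), all in the 3′ UTR.

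Jun: acattcgatctcattCAGTATTaaagg
Fosb: gctcccacccctgtgCAGTATTatgct
Atf3: attacttatttatccCAGTATTcctag

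The *Jun* and *Fosb* matches are followed by A, the base that lies opposite the first base of the microRNA, and the *Atf3* match is followed by C. The 3′ UTRs of these genes are 1233 bases (*Jun*), 2302 bases (*Fosb*) and 1186 bases (*Atf3*) long, against a median of 1385.5 bases among 10812 genes tested that have an annotated 3′ UTR. Of those 10812 genes, 16.9% held at least 1 match, so a match alone is common. The share on the same footing is 2 of the 9 members tested (22.2%), as *Atf3* was below the level tested. The 3′ UTRs of *Fos* (815 bases), *Fosl1* (638 bases), *Fosl2* (4653 bases), *Junb* (485 bases), *Jund* (533 bases), *Maff* (1221 bases) and *Egr1* (1216 bases) held none.

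The genes covered a wide range of levels (the plot of FPKM by library). *Fosl1* was the most abundant without Dox at 239 ± 8.51 FPKM (SD, n = 3), followed by *Jund* at 170.3 ± 4.68, *Junb* at 132 ± 5.05 and *Jun* at 98.3 ± 5.14. *Fosl2* at 55.6 ± 0.461 and *Maff* at 40 ± 2.17 FPKM came next, and *Egr1* (8.52 ± 0.616), *Fos* (4.18 ± 0.435), *Fosb* (2.41 ± 0.0683) and *Atf3* (0.557 ± 0.267) were low. Without Dox the values of neighbours in this order did not overlap. With Dox the order of the means was the same, but *Fosl1* and *Jund* overlapped, at 173 to 189.9 and 169 to 174 FPKM. Both share sequence with a gene on the opposite strand, described below, which bears on their levels and on their places in this order.

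**Figure D1:**
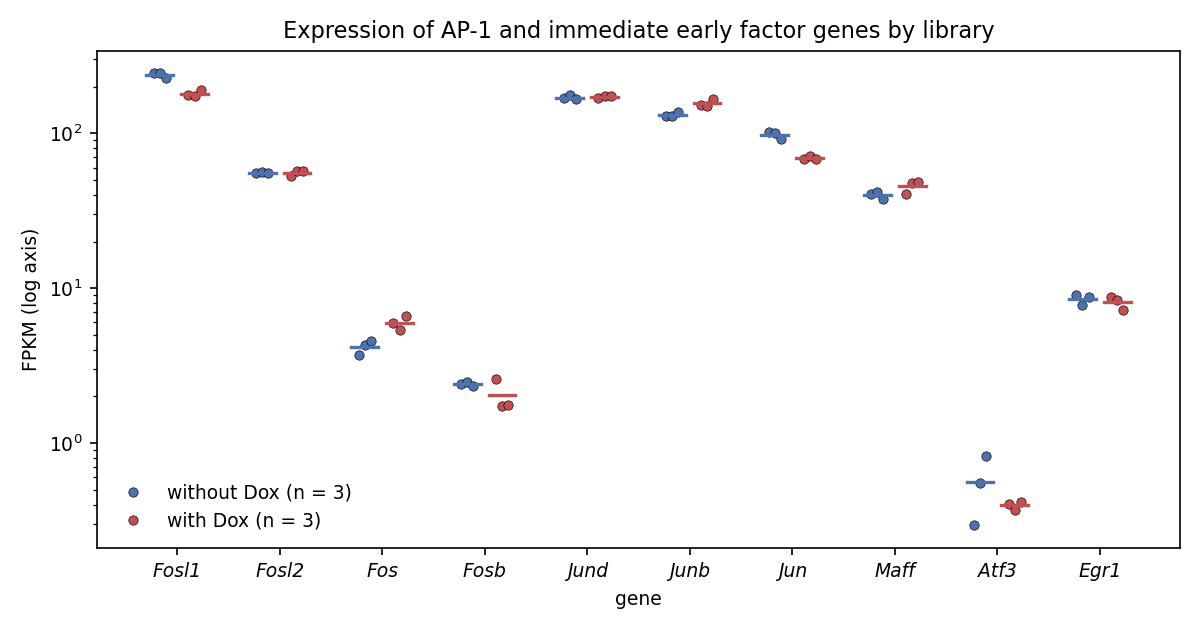
FPKM on a log axis for the 10 genes in each library (points) with the mean of each group (lines), 3 libraries without Dox in blue and 3 with Dox in red. The groups stand apart for *Fosl1* (229 to 244 without Dox and 173 to 189.9 with Dox), *Jun* (92.5 to 102 and 68 to 71.8), *Junb* (129 to 137 and 149.7 to 166) and *Fos* (3.7 to 4.56 and 5.37 to 6.59), and overlap for the others.

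Between the groups, *Jun* and *Fosl1* fell with Dox while *Junb* and *Fos* rose, and the other members did not pass the test. The test was limma on log2(FPKM + 0.1), fitted on the 12879 genes that averaged 1 FPKM or more, with Benjamini-Hochberg adjusted p-values over all of them and a threshold of 0.05. Of the 10 members, 9 were above that minimum (*Atf3* was not), and 4 of the 9 (44.4%) passed, against 15.0% of all genes tested. Of all genes tested 7.06% passed as higher and 7.97% as lower, beside 2 members in each direction. In the same 4 members the groups did not overlap, 2 in each direction, which was so in 35.0% of the 12875 genes with all 6 values (17.4% higher and 17.6% lower). With the replicate number as a block, which calls 10.4% of all genes, *Fos* was lost (adjusted p = 0.0799 from limma) and the other 3 members passed. The median log2 fold change was 0.00 over the 9 members and 0.004 over all genes tested. The members were chosen with earlier results of these data known, and genes of like level were not compared. The shares of members that passed are therefore a description only.

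*Jun* encodes c-Jun, the main transactivating Jun protein and the one that MAP kinases of the JNK type phosphorylate. It is a gene of 1 exon on chromosome 4 (ENSMUSG00000052684, GRCm38, chr4:95049034-95052222, minus strand). Its FPKM was 102, 100.2 and 92.5 without Dox and 68.2, 71.8 and 68.0 with Dox, so every library with Dox lay below every library without. The log2 fold change was -0.50 (standard error, SE, 0.05, 95% interval -0.62 to -0.38, adjusted p = 0.00108 from limma), a mean FPKM lower by 29.4%. *Jun* passed in all 16 alternative settings, with log2 fold changes from -0.54 to -0.47. The antisense gene *Junos* overlaps *Jun* over 7.28% of the *Jun* transcript and was at 3.58 ± 1.35 FPKM without and 3.02 ± 0.52 FPKM with Dox (SD, n = 3 each).

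*Junb* encodes JunB, a weaker activator that can oppose c-Jun at shared sites. Its FPKM was 129, 129 and 137 without Dox and 153, 149.7 and 166 with Dox, and the groups did not overlap. It rose by a log2 fold change of 0.25 (SE 0.0506, 95% interval 0.13 to 0.37, adjusted p = 0.0186 from limma). The rise was not past the threshold without the first or the second library without Dox (adjusted p = 0.0601 and 0.0643) or without the third library with Dox (0.0524), nor in 3 other settings. The *Junb* locus (ENSMUSG00000052837, chr8:84974484-84978718, minus strand) overlaps *Prdx2* on the other strand, which was lower with Dox (201 ± 10.5 against 163 ± 12.6 FPKM, SD, n = 3 each, adjusted p = 0.0213 from limma), although no stretch of at least 50 bases of the *Junb* transcript was shared with it.

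*Jund*, whose product is the constitutively expressed Jun protein, measured 168, 176 and 167 FPKM with vehicle and 169, 174 and 174 FPKM with Dox. These values overlap, and the 95% interval of the log2 fold change, -0.06 to 0.10, holds 0 (adjusted p = 0.793 from limma). The antisense gene *Gm11175* covers 52.8% of the *Jund* transcript and was at 21.4 ± 2.19 FPKM without and 14 ± 3.03 FPKM with Dox (SD, n = 3 each), which passed as lower (adjusted p = 0.0379 from limma). Whether the counting used strand is not given in the sources used here, so reads of *Gm11175* may be counted in *Jund*, and its part in the *Jund* values was not tested.

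With *Jun* lower and *Junb* higher, the Jun family summed to 400.1 ± 3.93 FPKM without Dox and 398 ± 9.14 FPKM with Dox (SD, n = 3 each). The share of *Jun* in that sum was 25.6, 24.8 and 23.3% without Dox and 17.5, 18.2 and 16.7% with Dox. The share of *Junb* was 32.2, 31.8 and 34.6% without Dox and 39.2, 37.9 and 40.8% with Dox. Both shares stood apart between the groups, whereas that of *Jund*, at 42.1 to 43.4% without and 42.6 to 44% with Dox, overlapped. These shares depend on each other, and the sequence that *Jund* shares with *Gm11175* bears on the sum and on all of them. The ratio of *Jun* to *Junb* FPKM was 0.749 ± 0.066 without Dox and 0.445 ± 0.0355 with Dox (SD, n = 3 each). In an exact two-sided permutation test over libraries, p was 0.1 for the shares of *Jun* and *Junb* and for the ratio, the smallest that 3 libraries against 3 allow, 0.3 for *Jund* and 0.7 for the sum.

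*Fosl1*, on chromosome 19 (ENSMUSG00000024912, chr19:5447547-5455946, plus strand), encodes FRA-1, which lacks the transactivation domain of c-Fos and is sustained by ERK signalling. Its FPKM was 244, 244 and 229 without Dox and 178, 173 and 189.9 with Dox. The lowest library without Dox was above the highest with Dox, the log2 fold change was -0.41 (SE 0.0458, 95% interval -0.51 to -0.30, adjusted p = 0.00183 from limma) and the mean FPKM was lower by 24.5%. *Fosl1* passed in all 16 alternative settings, at log2 fold changes from -0.44 to -0.37. Its longest transcript shares 62.5% of its bases with *Ccdc85b*, a gene on the opposite strand, and whether the counting used strand is not given in the sources used here. *Ccdc85b* was at 161 ± 6.4 FPKM without and 143 ± 6.08 FPKM with Dox (SD, n = 3 each), and did not pass (log2 fold change -0.17, adjusted p = 0.0542 from limma), and its part in the *Fosl1* values was not tested.

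*Fosl2*, the gene of FRA-2, measured 55.5, 56.1 and 55.2 FPKM with vehicle and 52.8, 56.9 and 57.1 FPKM with Dox. The groups overlapped, with a 95% interval of the log2 fold change of -0.11 to 0.11 (adjusted p = 0.994 from limma).

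*Fos* (ENSMUSG00000021250, chr12:85473890-85477273, plus strand), the gene of c-Fos and the prototype of an immediate early gene, measured 3.7, 4.27 and 4.56 FPKM with vehicle and 5.93, 5.37 and 6.59 FPKM with Dox. The 3 values with Dox were above the 3 without, and the log2 fold change was 0.50 (SE 0.134, 95% interval 0.19 to 0.82, adjusted p = 0.0476 from limma). This call stood just inside the threshold and was lost whenever any 1 of the 6 libraries was left out (adjusted p 0.0687 to 0.152) and in 5 other settings, while the log2 fold change stayed between 0.42 and 0.57. *Fosb*, its close relative, measured 2.4, 2.48 and 2.34 FPKM with vehicle and 2.59, 1.74 and 1.75 FPKM with Dox. The first library with Dox was the highest of the 6 and the other two were the lowest, and the log2 fold change of -0.26 (95% interval -0.78 to 0.25) did not pass (adjusted p = 0.481 from limma).

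The Fos family summed to 301 ± 8.64 FPKM without Dox and 244 ± 9.99 FPKM with Dox (SD, n = 3 each), and *Fosl1* made up most of it in every library. The *Fosl1* share was 79.8, 79.5 and 78.7% without Dox and 74.4, 73 and 74.4% with Dox, while the *Fosl2* share went from 18.2 to 19% without Dox to 22 to 24% with Dox. *Fos* was 1.21 to 1.57% of the family without Dox and 2.27 to 2.58% with Dox. Exact two-sided permutation tests over libraries gave p = 0.1, the smallest possible, for the sum and for these 3 shares, and 1.0 for the *Fosb* share, which was 0.8 ± 0.0114% without and 0.832 ± 0.215% with Dox (SD, n = 3 each). Shares within a family depend on each other. The *Fosl2* mean was 55.6 FPKM in both groups, so the rise of its share is not a separate change. The sequence that *Fosl1* shares with *Ccdc85b* bears on the sum and on all these shares.

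**Figure D2:**
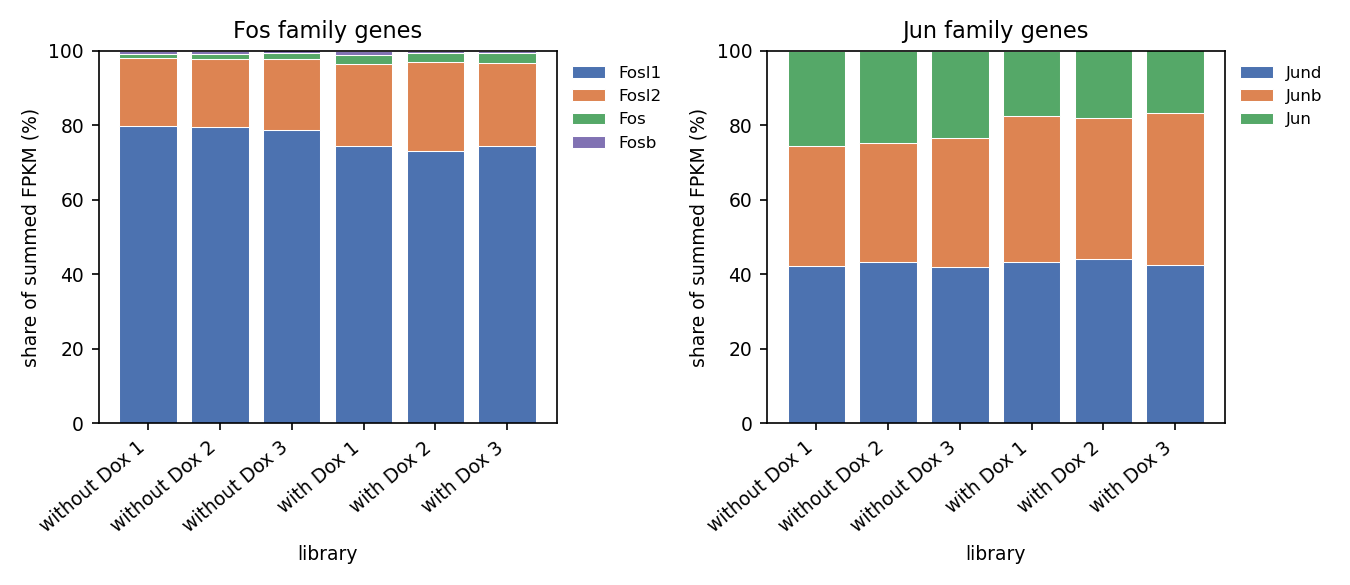
Share of each gene in the summed FPKM of the Fos family (left) and of the Jun family (right), in percent, with 1 stacked bar for each of the 6 libraries. *Fosl1* goes from 78.7 to 79.8% without Dox to 73 to 74.4% with Dox, and *Jun* from 23.3 to 25.6% to 16.7 to 18.2% while *Junb* goes from 31.8 to 34.6% to 37.9 to 40.8%.

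The remaining members did not pass. *Maff*, which encodes a small Maf protein without a transactivation domain, measured 40.7, 41.7 and 37.5 FPKM with vehicle and 40.4, 47.8 and 48.6 FPKM with Dox. The first library with Dox lay among those without, and the log2 fold change was 0.19 (95% interval -0.01 to 0.38, adjusted p = 0.187 from limma). Without that library the log2 fold change was 0.27 and just past the threshold (adjusted p = 0.0498). *Egr1*, on chromosome 18, had values of 8.98, 7.82 and 8.76 FPKM with vehicle and 8.8, 8.32 and 7.21 FPKM with Dox. These values overlap, with a log2 fold change of -0.07 (95% interval -0.33 to 0.18, adjusted p = 0.709 from limma). *Atf3*, a stress-induced repressor of the ATF group, was below 1 FPKM in every library, at 0.294, 0.548 and 0.829 without Dox and 0.406, 0.369 and 0.417 with Dox. Fitted without the minimum on level, its log2 fold change was -0.32 with a 95% interval of -1.26 to 0.63 (adjusted p = 0.69 from limma), too wide to show a change in either direction at this level.

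**Figure D3:**
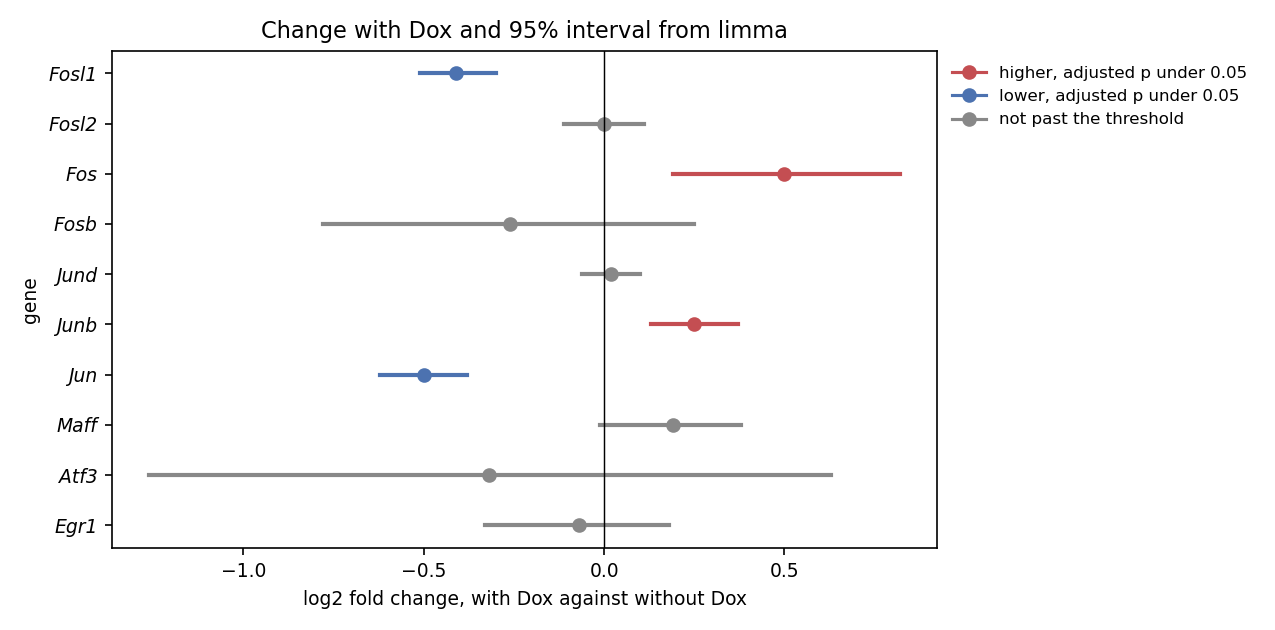
Log2 fold change with Dox against without Dox (points) and its 95% interval from limma (lines) for the 10 genes, with genes that passed as higher in red, as lower in blue and the others in gray. *Jun* (-0.50) and *Fosl1* (-0.41) lie to the left of 0 and *Junb* (0.25) and *Fos* (0.50) to the right, and the interval of *Atf3* is the widest.

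The start regions of these genes were read because *Jun* is known to be driven by its own product through an AP-1 type site, so that AP-1 members can act on each other's transcription. RefSeq windows of 300 bases (250 before to 50 after the annotated start, GRCm38.p6) were given for 8 of the 10 genes, *Fosl1* and *Egr1* having none, and were searched on both strands for the AP-1 site TGANTCA, for the related site TGACNTCA and for the CArG box that binds serum response factor. Matches were found for 2 genes, both to TGACNTCA. *Maff* had 3 windows and each other gene with a window had 1, while the shares given below are of windows and not of genes. The sites are printed 5′ to 3′ on the gene's strand with the match in capitals, at chr4:95052250-95052277 (minus strand) for *Jun* and, for *Maff*, at chr15:79347481-79347508 and chr15:79348347-79348374 (plus strand), in windows of separate annotated starts.

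Jun: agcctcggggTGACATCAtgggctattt
Maff, start 2: gctggggcggTGACGTCActgcatgact
Maff, start 3: tggagccatgTGACATCAgtgtttgttc

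The match began 45 bases before the annotated start in *Jun*, 29 bases before it at *Maff* start 2 and 45 bases before it at *Maff* start 3, and no match overlapped one to another motif. TGACNTCA was present in 8.83% of all 32851 windows, TGANTCA in 7.81% and the CArG box in 1.63%, and a missing match says only that these letters are not in the window.

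Other genes of the same system were taken from 4 lists (the plot of related lists). The lists were chosen with earlier results of these data known. Genes of like level were not compared, so the shares that passed are a description only. Of 21 other bZIP factors, 18 were tested, and 4 rose and none fell, so 22.2% passed against 15.0% of all genes. *Mafk*, another small Maf gene, rose from 27.1, 27 and 28.2 to 36.9, 40.1 and 37 FPKM, and passed at a log2 fold change of 0.47, with an adjusted p = 0.00194 from limma. *Atf4*, the effector of the integrated stress response and the most abundant of the list, rose from 335 to 346 FPKM without Dox to 379 to 384 FPKM with Dox (log2 fold change 0.16, adjusted p = 0.00829 from limma). *Nfe2l1*, a factor of the cap and collar group, rose from 241, 219.8 and 236 to 303, 268 and 268 FPKM (log2 fold change 0.27, adjusted p = 0.0249 from limma). It did not pass without the second or the third library without Dox or the third with Dox (up to 0.0744). *Batf3*, picked out after its values were seen because it lies far from the rest of its list, was at 1.43 to 4.51 FPKM without Dox and 0.134 to 1.15 FPKM with Dox and did not pass (log2 fold change -1.93, 95% interval -3.61 to -0.25, adjusted p = 0.123 from limma).

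**Figure D4:**
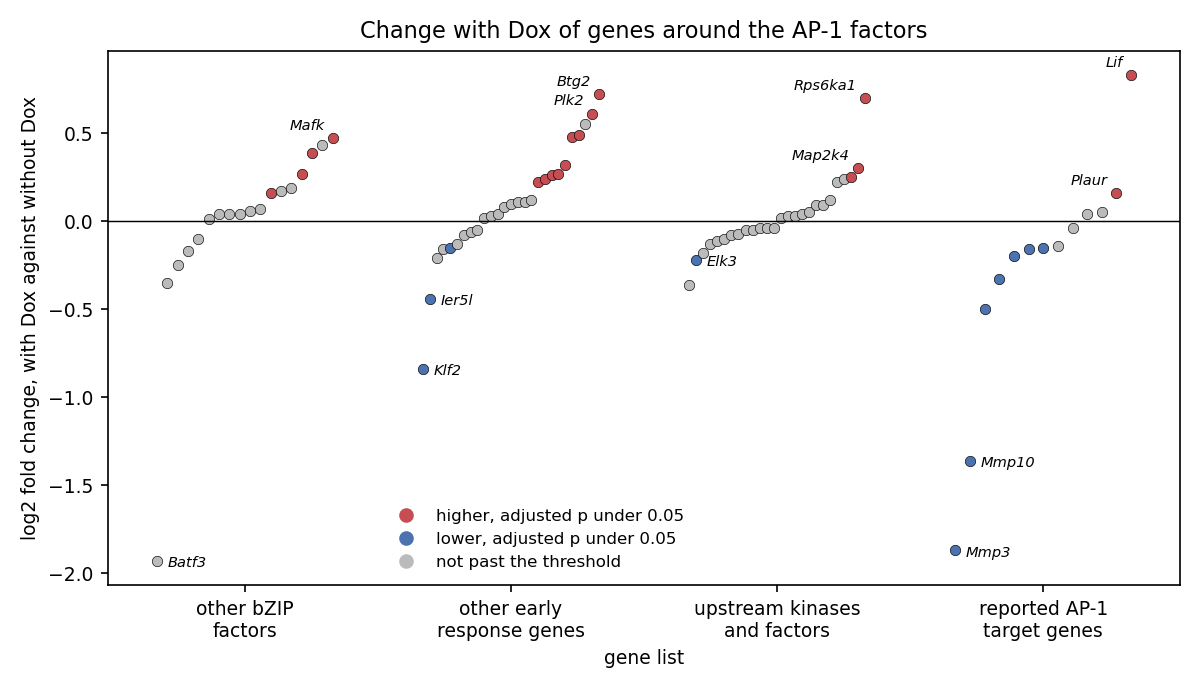
Log2 fold change with Dox against without Dox of each gene tested in 4 lists, with genes that passed as higher in red, as lower in blue and the others in gray, and some of the most changed genes named. Of the reported AP-1 targets 7 are lower and 2 higher, and of the other early response genes 9 are higher and 3 lower, where 7.06% of all genes tested are higher and 7.97% lower. The lists were chosen with earlier results of these data known.

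Among 30 other early response genes, 27 were tested, and 9 rose and 3 fell, 44.4% in all against 15.0% of all genes tested. *Cyr61*, a matricellular gene that serum induces, rose from 329, 335 and 339.6 to 448, 488 and 479 FPKM (log2 fold change 0.49, adjusted p = 3.57e-04 from limma). *Plk2*, a kinase gene, rose from 40.8 to 45.5 FPKM without Dox to 63.5 to 69.2 FPKM with Dox (0.61, adjusted p = 8.46e-04 from limma), and *Btg2*, an antiproliferative gene, from 3.47 to 4.1 to 5.66 to 7.21 FPKM (0.72, adjusted p = 0.0144 from limma). *Zfp36*, whose product binds AU-rich elements and speeds the decay of early mRNAs, also rose (log2 fold change 0.48, adjusted p = 0.0167 from limma), as did *Ier3*, the most abundant gene of the list (0.32, 0.0242). *Zfp36* was past the threshold in 2 and *Ier3* in 2 of the 6 fits that left out 1 library (adjusted p up to 0.0665 and 0.0757). *Klf2*, a zinc finger factor gene, fell from 25, 23.6 and 23.9 to 13.3, 14.9 and 12.2 FPKM (-0.84, adjusted p = 9.97e-04 from limma). *Ier5l* fell by 0.44 on the log2 scale (adjusted p = 0.00256 from limma), and *Hbegf*, an EGF family ligand gene, by 0.15 (0.0339), which was lost without any 1 library (0.0688 to 0.0953).

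The kinases and factors that act on AP-1 genes changed about as often as genes in general, with 3 rising and 1 falling of 26 tested (15.4%). *Rps6ka1*, the gene of a ribosomal S6 kinase downstream of ERK, rose from 30.2, 29.6 and 30.3 to 50.4, 48.2 and 48.6 FPKM (log2 fold change 0.70, adjusted p = 1.65e-04 from limma). *Map2k4*, which encodes a kinase that activates JNK, rose (log2 fold change 0.30, adjusted p = 0.0106 from limma), as did *Braf* (0.25, 0.0388), and *Elk3*, a ternary complex factor that acts with serum response factor, fell by 0.22 on the log2 scale (0.0115). *Braf* passed in 1 of the 6 fits that left out 1 library (adjusted p up to 0.128). The most abundant genes of the list, *Map2k2* and the ERK1 gene *Mapk3*, were at 223 to 234 and 203 to 219 FPKM without Dox and at 220.1 to 226 and 199 to 209 FPKM with Dox, and did not pass (adjusted p = 0.452 and 0.451 from limma).

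Of 16 genes reported elsewhere as AP-1 targets, 13 were tested, and 7 fell and 2 rose, 69.2% in all against 15.0% of all genes tested, with a median log2 fold change of -0.15 against 0.004 over all genes tested. The list was written with earlier results of these libraries known, so it is no independent evidence of direction. The matrix metalloproteinase genes *Mmp3* and *Mmp10* fell most, *Mmp3* from 178, 153 and 169 to 48.4, 47.3 and 40.8 FPKM (log2 fold change -1.87, adjusted p = 4.48e-05 from limma) and *Mmp10* from 38.9, 40.8 and 34.6 to 16.3, 12.9 and 15.2 FPKM (-1.36, adjusted p = 3.64e-04 from limma). *Hmox1*, the heme oxygenase gene, fell by 0.50 on the log2 scale (adjusted p = 8.01e-04 from limma), *Spp1*, the osteopontin gene, by 0.33 (0.00223), and *Ccnd1*, the cyclin D1 gene, by 0.16 (0.00406). *Lif*, a cytokine gene of the IL-6 family, rose from 20.5, 22.8 and 23.1 to 38.2, 36.7 and 43.9 FPKM (0.83, adjusted p = 0.00113 from limma). *Plaur*, the urokinase receptor gene, rose from 99.7 to 107 to 112 to 116 FPKM (0.16, adjusted p = 0.039 from limma), a call that 5 of the 6 omissions of 1 library removed (adjusted p up to 0.123). *Mmp9* and *Mmp13* were below the minimum and *Il6* was listed at 0 in all libraries.

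The miR-200c seed match was found in the 3′ UTRs of 3 of 18 other bZIP genes tested, 5 of 27 early response genes, 4 of 26 kinase and factor genes and 1 of 13 reported targets, against 16.9% of all genes tested with an annotated 3′ UTR. None of the 11 genes in these lists that fell with Dox held a match, a set too small to differ clearly from that share. Among the members tested, *Jun*, which fell, and *Fosb*, which did not pass, held a match. The part of the match in the *Jun* values was not tested. *Plk2*, which rose, held 1. The genes with most matches were *Rps6ka3* (3) and *Mkl2* (2), and neither passed the test (log2 fold changes -0.10 and 0.24).

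Among the genes tested with all 6 values, those whose log2(FPKM + 0.1) followed *Fos* most closely over the 6 libraries were *Nfxl1*, *Ccdc85c* and *Bend5* (Pearson r from 0.9959 to 0.9966). Those closest to *Jun* were *Pxn*, *4931406C07Rik* and *Psap* (r from 0.9985 to 0.9995). With 6 points that share 2 group levels and are picked from 12875 genes, such values are a description only.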

How the data were processed

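Reads (single, 50 bases, TruSeq Stranded libraries) were mapped by the authors with gSNAP to mouse (GRCm38.p6, with FVB_NJ_v1 also named), and expression was estimated with Cufflinks. The authors deposited FPKM for each gene and library, with group means; versions and annotation are not given in the sources used here. Their fold changes, p-values and q-values were not used. Groups and replicate numbers came from the sample titles. The table had 43611 rows; 63 repeats of an identifier were dropped, the row with the highest mean being kept, and 6 placeholder values (999999999) in 4 genes were read as missing. There were 0 unused columns of per-sample values.

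Genes averaging 1 FPKM or more were fitted on log2(FPKM + 0.1) by limma 3.58.1 (R 4.3.3, eBayes with trend), with group as the only term; a fold change on this scale understates that of low genes. Genes below the minimum came from the same model over 20513 genes. The model was checked on simulated data of 12875 genes, with 100 changed by 0.5 and 100 by 1 on the log2 scale. It recovered 42% of those changed by 0.5 and 78% of those changed by 1, with 5.51% of calls false. The changed share was smaller than the 15.0% of genes called in the data, so these rates need not hold for them. Shares were compared by exact permutation (SciPy 1.17.1). Members are all named; of each related list, the up to 4 largest rises and 4 largest falls that passed and the 2 highest levels are named, except where a gene is not reported here. The members and lists were chosen with earlier results of these data known. Shared sequence was found with BLAST 2.17.0 (95% identity, at least 50 bases). Alternatives were pseudocounts of 1 and 0.01, no minimum or one of 5 FPKM, quantile or median scaling, no trend, an unmoderated linear model on log2(FPKM + 1), an adjusted p of 0.01, a replicate block and the omission of each library.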

Additional observations from a re-analysis of the deposited data

How the results depend on the processing

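Of all genes tested, 15.0% passed as reported and 10.4% with the replicate block. The share of all genes is not given for the other settings, so the counts there describe the settings only. *Jun* and *Fosl1* passed as lower in all 16 alternatives, so 2 members were called lower in each. The number of members called higher, 2 as reported (*Junb* and *Fos*), was 1 with no minimum, with a minimum of 5 FPKM, without the trend and with the replicate block. It was 0 by the unmoderated linear model and at an adjusted p under 0.01 from limma, where 2 members were higher at an unadjusted p under 0.05, and it ranged from 0 to 2 when 1 library was left out. It was 0 without the first or the second library without Dox and without the third library with Dox (limma, with 2 members higher at an unadjusted p under 0.05 in each), and 1 without the third library without Dox or the second with Dox. Without the first library with Dox the 2 were *Junb* and *Maff*. The 4 related lists held 18, 27, 26 and 13 genes tested, and of all genes tested 7.06% were called higher and 7.97% lower. In these lists together, 18 genes were called higher and 11 lower. At an adjusted p under 0.01 these were 8 and 7, without the trend 7 were lower, and with 1 library left out 10 to 14 were higher, 10 of them without the second library without Dox or the third with Dox, and 8 to 9 were lower. The direction of values that did not pass turned for *Fosl2* (0.00083 after median scaling, 0.01 without the second library without Dox and 0.04 without the first with Dox, in a range of -0.02 to 0.04), for *Egr1* (0.01 without the third with Dox, in a range of -0.13 to 0.01) and for the *Fosb* share, whose difference ranged from -0.0911 percentage points (without the first library with Dox) to 0.106. The cause was not tested. Of the 23 related genes that passed and that the naming rule picked, 11 passed in every alternative and 16 in every fit that left out 1 library.

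The replicate numbers are shared by the groups, but after subtraction of group means, libraries with one number correlated across genes by only 0.0287, 0.0359 and -0.00759, and the third library without Dox correlated best with another number, so the numbers were not taken to pair the libraries. The replicate block called 1337 of all genes tested (10.4%) against 1935 without it, 14 related genes higher and 8 lower, and 1 member higher and 2 lower, *Fos* being the member lost (adjusted p = 0.0799 from limma).

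Without read counts, precision at low FPKM (*Atf3*, *Fosb*, *Fos*) rests on the spread of 3 libraries.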
